A study of Mus musculus with 53 samples.

Results

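Matrix metalloproteases (MMPs), the ADAMTS proteases and the tissue inhibitors of metalloproteases (TIMPs) were followed as 45 genes across 53 transcriptomes of mouse sciatic nerve (SCN). The members were every gene whose symbol began with Mmp, Timp or Adamts followed by a number and at most 1 further letter, and 1 symbol that matched the pattern was left out. Of the 49568 genes in the files, 45 were members: 22 MMP, 19 ADAMTS and 4 TIMP genes. A gene was called expressed where its mean over the 53 samples was at least 10 on the linear scale of the deposited log2 values, and 37 members (15 MMP, 18 ADAMTS and 4 TIMP genes) were expressed, among 18098 expressed genes in all.

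MMPs are zinc enzymes that cut collagens, laminins, other matrix proteins and cell surface proteins. They are made as inactive proforms, and membrane-type members such as Mmp14 activate others at the cell surface. ADAMTS enzymes are secreted relatives that bind matrix through thrombospondin repeats and cleave proteoglycans or trim procollagens, and the TIMPs block the catalytic site of the MMPs, with Timp3 also inhibiting ADAMTS proteases. In peripheral nerve these enzymes act on the collagen-rich endoneurium and the basal lamina around Schwann cells, and they are best known there for their part in the response to injury.

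All samples came from male C57BL/6J mice of 8 groups, with age in weeks given in the group name. Mice on standard diet (SD) were sampled as SD16 (n = 5) and SD24 (n = 8). Mice given a high-fat diet (HFD, 60% of calories from fat) from 5 weeks of age, used as a model of prediabetes, were sampled as HFD16 (n = 7) and HFD24 (n = 7). Mice on the same diet that also received streptozotocin (STZ, a toxin of insulin-producing beta cells) at 12 weeks, first 75 and then 50 mg/kg, were used as a model of type 2 diabetes (T2D) and sampled as HFD-STZ16 (n = 5) and HFD-STZ24 (n = 8). Dietary reversal (DR) returned mice to standard diet from 16 weeks for 8 weeks, giving HFD-DR24 (n = 7) and HFD-STZ-DR24 (n = 6). No group received STZ without HFD, so STZ was seen only in mice with a history of that diet.

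RNA was taken from whole nerve, so that fewer cells of a type and less RNA per cell cannot be told apart. The labels do not say that each sample is a separate animal, and the p-values below then measure only the spread between these samples, which may be technical. The read depth behind each log2 value is unknown, since the files held no counts. Schwann cell markers were high throughout, with group means of the 6-marker score between 17.44 and 17.85. Correlations between samples over expressed genes ran from 0.916 to 0.994, and no pair held identical values. HFD-STZ24 replicate 7 stood apart, with a median correlation with the others of 0.941, followed by HFD-STZ-DR24 replicate 4 at 0.954. Pairwise differences of single members that shrank most without either are also given without it. Counts with an unadjusted p under 0.05 and shares over all members are given with both included.

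The inhibitors and a few proteases made up most of the expression. To compare levels between genes, the log2 value was corrected for the length of each gene's merged exons, giving a log2 value per kilobase. Timp2 (14.33) and Timp3 (13.16) were the highest members on that scale, followed by the gelatinase Mmp2 (11.85), the membrane-type MMPs Mmp15 (11.43) and Mmp14 (9.50), and the proteoglycanases Adamts5 (9.48) and Adamts1 (8.88). The procollagen N-proteinase Adamts2 (8.65), Adamts20 (8.29), the membrane-type Mmp17 (8.22) and Mmp23 (7.90) came next. Timp1 (7.24) and Timp4 (6.90), the other 2 inhibitors, lay between the proteases Mmp11 (7.35), Mmp19 (7.15), Adamts10 (6.92), Mmp9 (6.88), Mmp28 (6.79) and Mmp3 (6.60). In the lower part of this order neighbours such as Timp4, Mmp9 and Mmp28 were closer to each other than the SD of their own values over the samples, while Timp2, Timp3 and Mmp2, and Mmp15 and Mmp14, were further apart than that.

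Of the remaining expressed members, Adamts14, Adamts7, Adamts4, Adamts15, Adamts9, Mmp16, Adamts17, Adamts12, Adamts6, Mmp8 and Adamts8 had mean log2 values from 5.32 (Adamts8) to 8.90 (Adamts15) before the correction for length. Adamts3, Adamts18, Adamts16, Adamts19, Mmp13, Mmp24 and Mmp27 were near the limit of expression, at 4.73, 4.50, 4.47, 4.11, 3.77, 3.63 and 3.50. The 8 members under the limit were Adamts13 (3.25), Mmp25 (3.24), Mmp21 (2.63), Mmp20 (2.44), Mmp1a (1.90), Mmp10 (1.67), Mmp1b (0.31) and Mmp7 (-0.01). Thus the interstitial collagenases Mmp1a and Mmp1b, the matrilysin Mmp7 and the stromelysin Mmp10 were at or near the bottom of the scale in every group, while the collagenase Mmp13 lay near the limit and the collagenase Mmp8 ran up to 9.23, at or above the limit in 52 of 53 samples. Mmp27, the lowest expressed member, reached the limit in 36 of 53 samples, and Adamts13, the highest member below it, in 27.

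**Figure D1:**
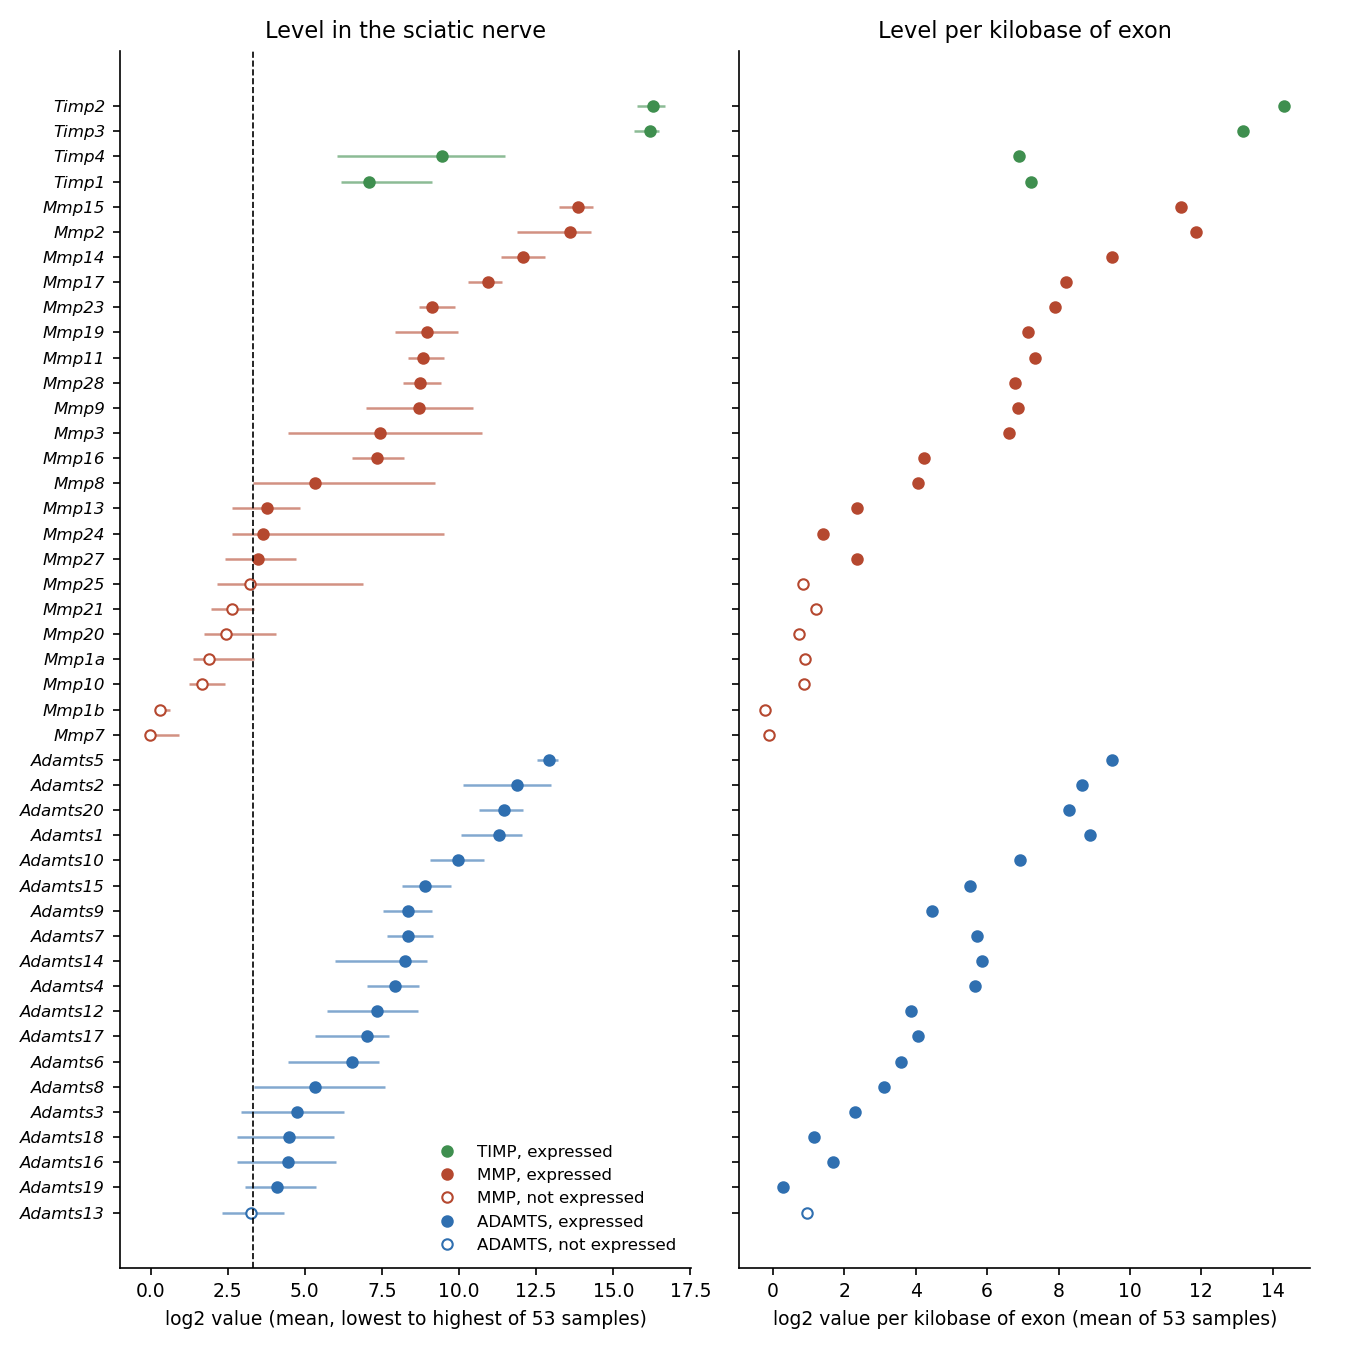
Level of the 45 members in sciatic nerve. The left panel gives the log2 value of each gene (point, mean of 53 samples; line, lowest to highest sample; open points, members below the dashed limit of expression) and the right panel the mean log2 value per kilobase of exon. Timp2 and Timp3 lead both panels, and the longest lines belong to Mmp24, Mmp3, Mmp8 and Timp4.

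Members differed widely in their spread over samples. The range over the 53 samples was 0.82 for Timp3, 0.91 for Timp2 and 0.69 for Adamts5, against 6.30 for Mmp3, 5.91 for Mmp8 and 5.44 for Timp4. Mmp24 had the widest range (6.88), and its highest value (9.52) was the library HFD-STZ24 replicate 7, in which Mmp25, a membrane-anchored MMP, was also at its highest (6.89). In all other groups the highest Mmp24 value was 4.80, so that the range of Mmp24 rests on that library.

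The MMP genes that were not expressed lay mostly side by side. On mouse chromosome 9, 9 of the 22 MMP genes stand within 427 kb (GRCm38, 7272514 to 7699585), among them Mmp1a, Mmp1b, Mmp7, Mmp10 and Mmp20, and only Mmp3, Mmp13, Mmp8 and Mmp27 of the 9 were expressed, the highest (Mmp3) with a mean log2 value of 7.45. Of the 13 MMP genes elsewhere 11 were expressed. Promoter sequence from RefSeq (GRCm38.p6) was matched by symbol for 31 members, and the 250 bases before the start were searched on both strands for 3 motifs. The AP-1 motif was searched as TGANTCA. The letters of the TATA box were TATAAA. The GC box was taken as GGGCGG. No matches of different motifs overlapped.

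AP-1 sites and TATA boxes are classical promoter elements of the inducible MMPs. Both motifs were found in 7 of the 9 cluster genes (77.8% for each), while 7.82% of 27025 mouse promoters had the AP-1 letters, 14.3% had the TATA letters and 1.65% had both. Mmp8 and Mmp27 had neither, and none of the 9 had a GC box, which stood in 6 of 8 MMP promoters elsewhere (75.0%) and in 35.4% of all promoters. The 7 cluster genes with both motifs comprised 5 members below the limit of expression and the expressed Mmp3 and Mmp13, so that the motifs did not separate expressed from unexpressed genes. GC content of the 250 bases had a median of 40.4% in the cluster, 62.6% in MMP genes elsewhere and 52.4% over all promoters.

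The 150 bases before the start are printed 5′ to 3′ for 4 cluster genes that show the contrast, and for Mmp28 and Timp4, on which results below turn, with motif matches in capitals. Positions are counted back from the start and give the first base of a match. Mmp3 (chr9:7445672-7445821, plus strand) had the AP-1 letters at -46 and the TATA letters at -7, Mmp13 (chr9:7272364-7272513, plus strand) at -35 and -16, and the unexpressed Mmp10 (chr9:7502192-7502341, plus strand) at -63 and -29. Mmp8 (chr9:7558279-7558428, plus strand) had no match. Mmp28 (chr11:83463041-83463190, minus strand) had GC boxes at -33 and -15, and Timp4 (chr6:115252206-115252355, minus strand) had no match.
Mmp3: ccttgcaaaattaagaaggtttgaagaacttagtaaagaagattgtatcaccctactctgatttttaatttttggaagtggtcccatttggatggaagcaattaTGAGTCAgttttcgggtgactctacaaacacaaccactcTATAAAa
Mmp13: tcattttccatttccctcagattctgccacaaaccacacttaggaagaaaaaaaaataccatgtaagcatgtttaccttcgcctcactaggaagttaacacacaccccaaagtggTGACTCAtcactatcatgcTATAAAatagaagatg
Mmp10: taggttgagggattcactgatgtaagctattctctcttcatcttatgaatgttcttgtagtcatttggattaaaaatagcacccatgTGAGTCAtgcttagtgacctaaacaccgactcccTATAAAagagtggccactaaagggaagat
Mmp8: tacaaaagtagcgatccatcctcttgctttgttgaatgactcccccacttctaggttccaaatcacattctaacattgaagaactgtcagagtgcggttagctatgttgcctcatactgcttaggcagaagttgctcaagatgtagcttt
Mmp28: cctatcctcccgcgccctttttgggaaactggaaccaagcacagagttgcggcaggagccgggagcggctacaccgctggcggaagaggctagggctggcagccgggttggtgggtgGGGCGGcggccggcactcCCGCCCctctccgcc
Timp4: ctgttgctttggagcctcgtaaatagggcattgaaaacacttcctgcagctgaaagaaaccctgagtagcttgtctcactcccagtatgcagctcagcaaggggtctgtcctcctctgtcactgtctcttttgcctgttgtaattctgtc

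A match describes these letters only, and its absence says nothing of the factor.

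Diet, STZ, reversal and age were compared in 14 pairs of groups with limma, adjusted over all genes tested. In none of the 14 did any member pass an adjusted p of 0.05. Few genes passed in any of these fits, so the count of 0 stands beside a background of at most 0.121% of genes, and the members with an unadjusted p under 0.05 in limma are given with the same count over all genes. The study's own test (DESeq2, same threshold) called more genes in HFD and HFD-STZ against SD at both ages. This low background thus belongs to the limma fits used here. With HFD at 16 weeks, 4 of 37 members tested had an unadjusted p under 0.05 (2 higher, 2 lower), against 8.56% of all genes (adjusted, 0.00557%). At 24 weeks HFD gave 2 of 37, both higher, against 9.06% (adjusted, 0.121%). HFD-STZ gave 3 of 38 at 16 weeks against 8.41% (adjusted, 0%) and 5 of 37 at 24 weeks (2 higher, 3 lower) against 5.99% (adjusted, 0.0336%).

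STZ on HFD gave 3 of 38 members at 16 weeks against 4.88% of genes (adjusted, 0%) and 4 of 38 at 24 weeks, all lower, against 5.6% (adjusted, 0%). Reversal in the prediabetic model (HFD-DR24 against HFD24) gave 3 of 39, all lower, against 6.72% (adjusted, 0.0108%), and in the T2D model (HFD-STZ-DR24 against HFD-STZ24) 8 of 37 (2 higher, 6 lower) against 6.48% (adjusted, 0.0839%). After reversal, HFD-DR24 differed from SD24 in 1 of 37 against 5.15% (adjusted, 0%), HFD-STZ-DR24 from SD24 in 8 of 37 (2 higher, 6 lower) against 9.16% (adjusted, 0%), and HFD-STZ-DR24 from HFD-DR24 in 4 of 38, all lower, against 3.58% (adjusted, 0%). Between 16 and 24 weeks the counts were 8 of 37 in SD mice (6 higher, 2 lower) against 10.5% (adjusted, 0%), 6 of 39 in HFD mice (3 higher, 3 lower) against 5.89% (adjusted, 0.0653%) and 9 of 37 in HFD-STZ mice (3 higher, 6 lower) against 12.5% (adjusted, 0%). The members' share was thus above the background in some comparisons, 21.6% in the T2D reversal and 24.3% with age in HFD-STZ mice, and near or below it in others, such as 5.41% with HFD at 24 weeks.

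**Figure D2:**
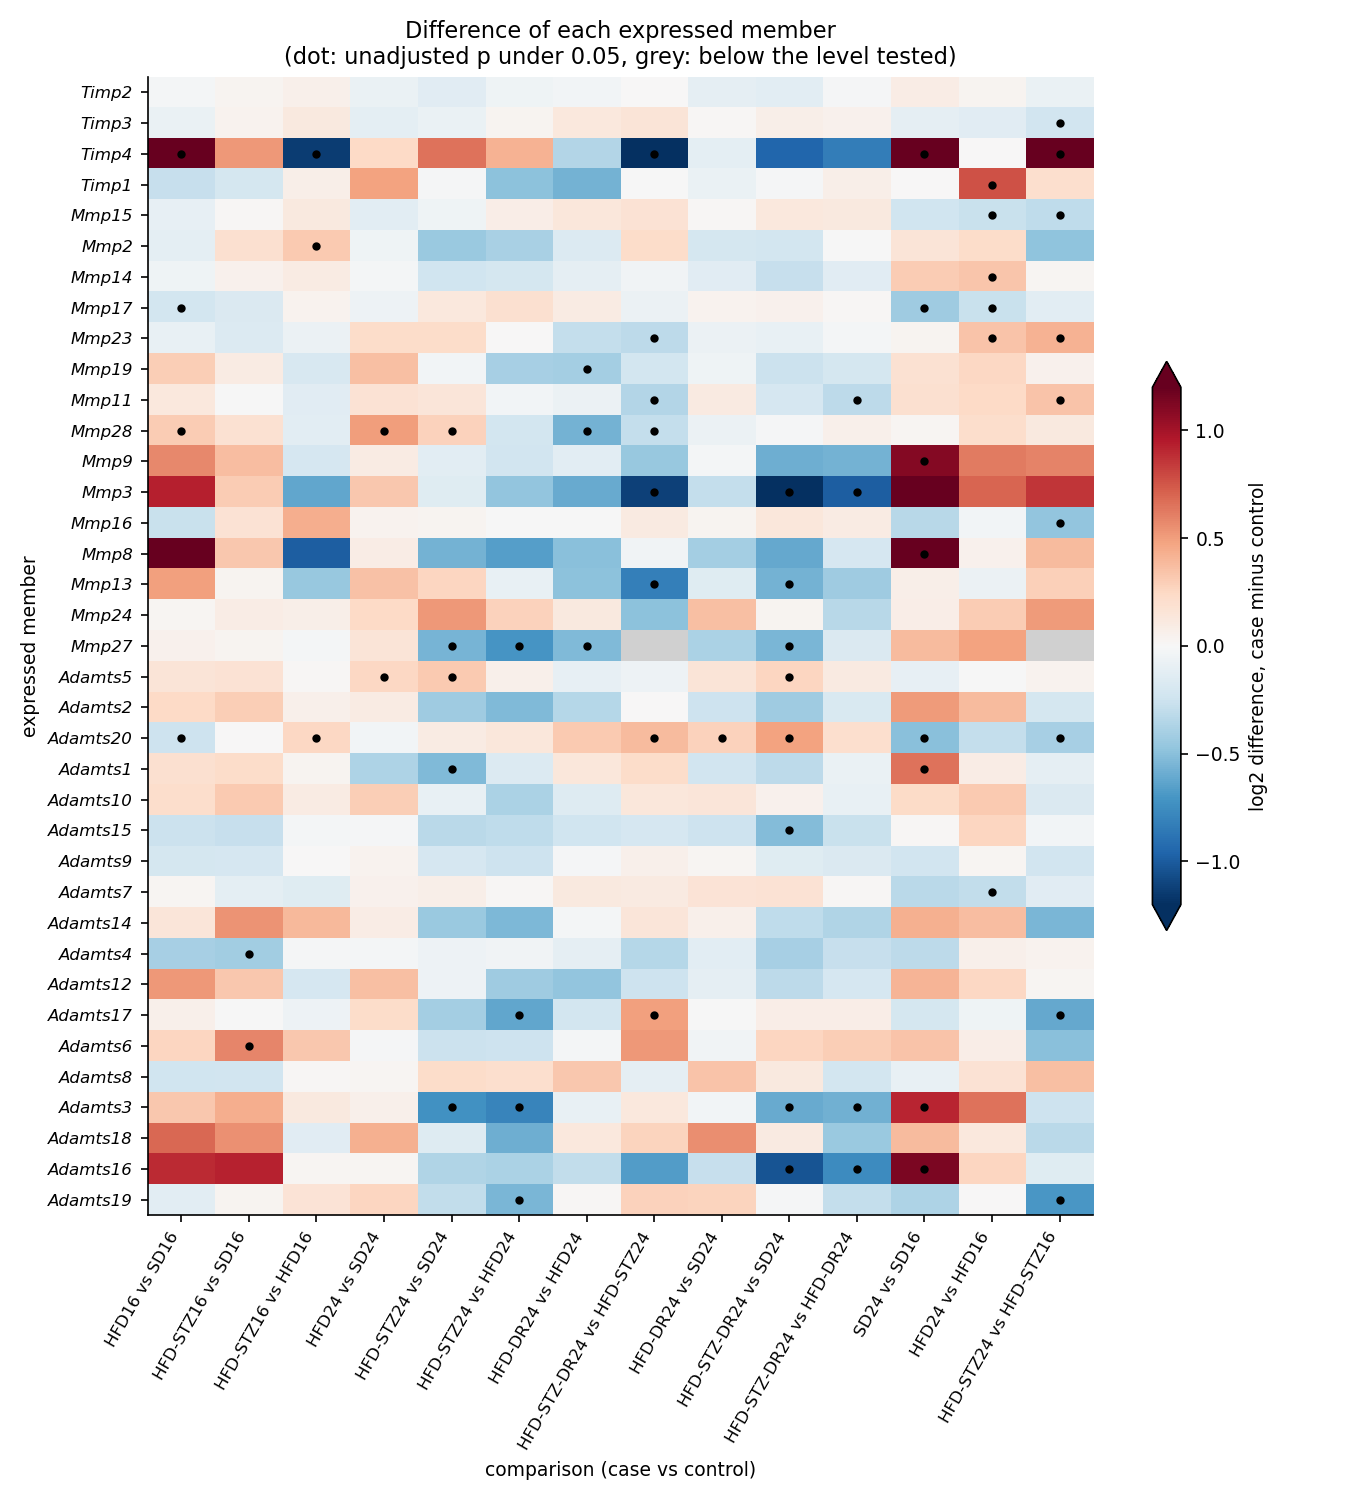
Difference in mean log2 value of each expressed member in the 14 comparisons (colour, case minus control, with colours ending at 1.2 in either direction; grey, below the level tested). Dots mark an unadjusted p under 0.05 in limma, and no member passed an adjusted p of 0.05.

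Directions over the whole group were as follows. In HFD-STZ24 against HFD24 the median member difference was -0.23 on the log2 scale and 26.3% of members tested lay above 0, against 47.9% of all genes. In HFD-DR24 against HFD24 the median was -0.11 and 25.6% lay above 0, against 49.4% of genes. In HFD24 against HFD16 the median was 0.22 and 76.9% lay above 0, against 55.6%. All of these comparisons share the HFD24 samples. Elsewhere the share also lay away from that of all genes. It was 73.7% against 54.3% in HFD-STZ16 against SD16, and 32.4% against 50.2% in HFD-STZ24 against SD24. In the T2D reversal 3 of 15 MMPs and 12 of 18 ADAMTS genes (66.7%) had a higher mean after reversal, against 51.9% of all genes, so that the ADAMTS share stood nearer to the background than the MMP share. An unadjusted p under 0.05 in limma was reached by 5 of the MMPs that were lower and by 2 of the ADAMTS genes that were higher. Members of a family share cells of origin and are not independent, and none of these shares was tested.

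Mmp28 (epilysin, a secreted MMP with a casein-cleaving activity) showed the smallest p of any member in the HFD comparison at 24 weeks and in the reversal of that diet. The gene lies on chromosome 11 (GRCm38, 83440768 to 83463071, minus strand). In SD24 its log2 values ran from 8.26 to 9.06 with a median of 8.55, in HFD24 from 8.74 to 9.40 with a median of 9.03, and in HFD-DR24 from 8.17 to 8.84 with a median of 8.51. All 7 HFD24 samples lay above the median of either other group, while the highest samples of both lay within the HFD24 range.

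Mmp28 was 0.50 higher on the log2 scale in HFD24 than in SD24 (SE 0.13, 1.41-fold, unadjusted p = 0.00124 and adjusted p = 0.168 in limma, exact permutation p = 0.00373). It was 0.57 lower in HFD-DR24 than in HFD24 (SE 0.13, 0.674-fold, unadjusted p = 0.000439 and adjusted p = 0.27 in limma, exact permutation p = 0.00175). Both comparisons use the same HFD24 samples, so the second is no independent repeat of the first. Neither passed the adjusted threshold when only the samples of the 2 groups were fitted.

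When all 8 groups shared 1 estimate of the spread, both passed, with an adjusted p of 0.0226 for HFD24 against SD24 (where 0.343% of genes passed) and of 0.0157 for HFD-DR24 against HFD24 (0.0996% of genes). With a further term for the 8 runs of neighbouring library numbers, the adjusted p of Mmp28 was 0.00866 (0.542% of genes) and 0.00787 (0.149% of genes). Each sample was also left out of these fits in turn. Without runs, leaving out a sample of another group cannot change the difference, only the shared spread. Those fits therefore test a call little. Without runs the first call of Mmp28 held in 47 of 53 fits (largest adjusted p = 0.0917 in limma) and was lost without SD24 replicates 5 or 7 or HFD24 replicates 4, 5, 6 or 7. These were 6 of the 15 samples compared. The second call held in 49 (largest adjusted p = 0.0879 in limma) and was lost without HFD24 replicates 4 or 7 or HFD-DR24 replicates 4 or 5. These were 4 of the 14 samples compared. With runs the first call held in all 53 and the second in 52, with an adjusted p of 0.0716 in limma without HFD24 replicate 4. Leaving out any 1 sample kept the differences of the pairwise fit between 0.45 and 0.56 and between -0.63 and -0.51. The Mmp28 differences were 0.48 and -0.52 with the adipocyte score in the model, and 0.45 and -0.47 with the muscle score. The adipocyte markers went opposite ways here. Cfd was 15.13 in SD24, 13.26 in HFD24 and 14.44 in HFD-DR24, and Retn was 11.18 in SD24 and 10.83 in HFD24. Adipoq, Plin1, Cidec and Fabp4 were higher in HFD24 than in SD24. The score itself differed by only 0.19 between HFD24 and SD24, and the markers were not fitted singly. Of the exon bases of Mmp28, 12.0% also belong to a gene on the other strand (1700020L24Rik), and these libraries cannot separate the 2 strands.

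The same direction was seen in the T2D model, at smaller size. In HFD-STZ24 Mmp28 ran from 8.49 to 9.14 (median 8.88) and in HFD-STZ-DR24 from 8.39 to 8.74 (median 8.57). The mean in HFD-STZ24 was 0.28 above SD24 (SE 0.12, unadjusted p = 0.0275 and adjusted p = 0.815 in limma, exact permutation p = 0.0289), and HFD-STZ-DR24 was 0.29 below HFD-STZ24 (SE 0.10, unadjusted p = 0.0129 and adjusted p = 0.504 in limma, exact permutation p = 0.0113). Without HFD-STZ24 replicate 7, the Mmp28 differences were 0.33 and -0.34. At 16 weeks Mmp28 was 0.31 higher in HFD16 (8.65 to 9.24, median 8.83) than in SD16 (8.84, 8.21, 8.64, 8.54 and 8.60), with an unadjusted p of 0.031 and an adjusted p of 0.569 in limma. HFD-STZ16 (8.90, 8.63, 8.83, 8.72 and 8.70) lay within the range of HFD16 except for 1 sample just below it.

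**Figure D3:**
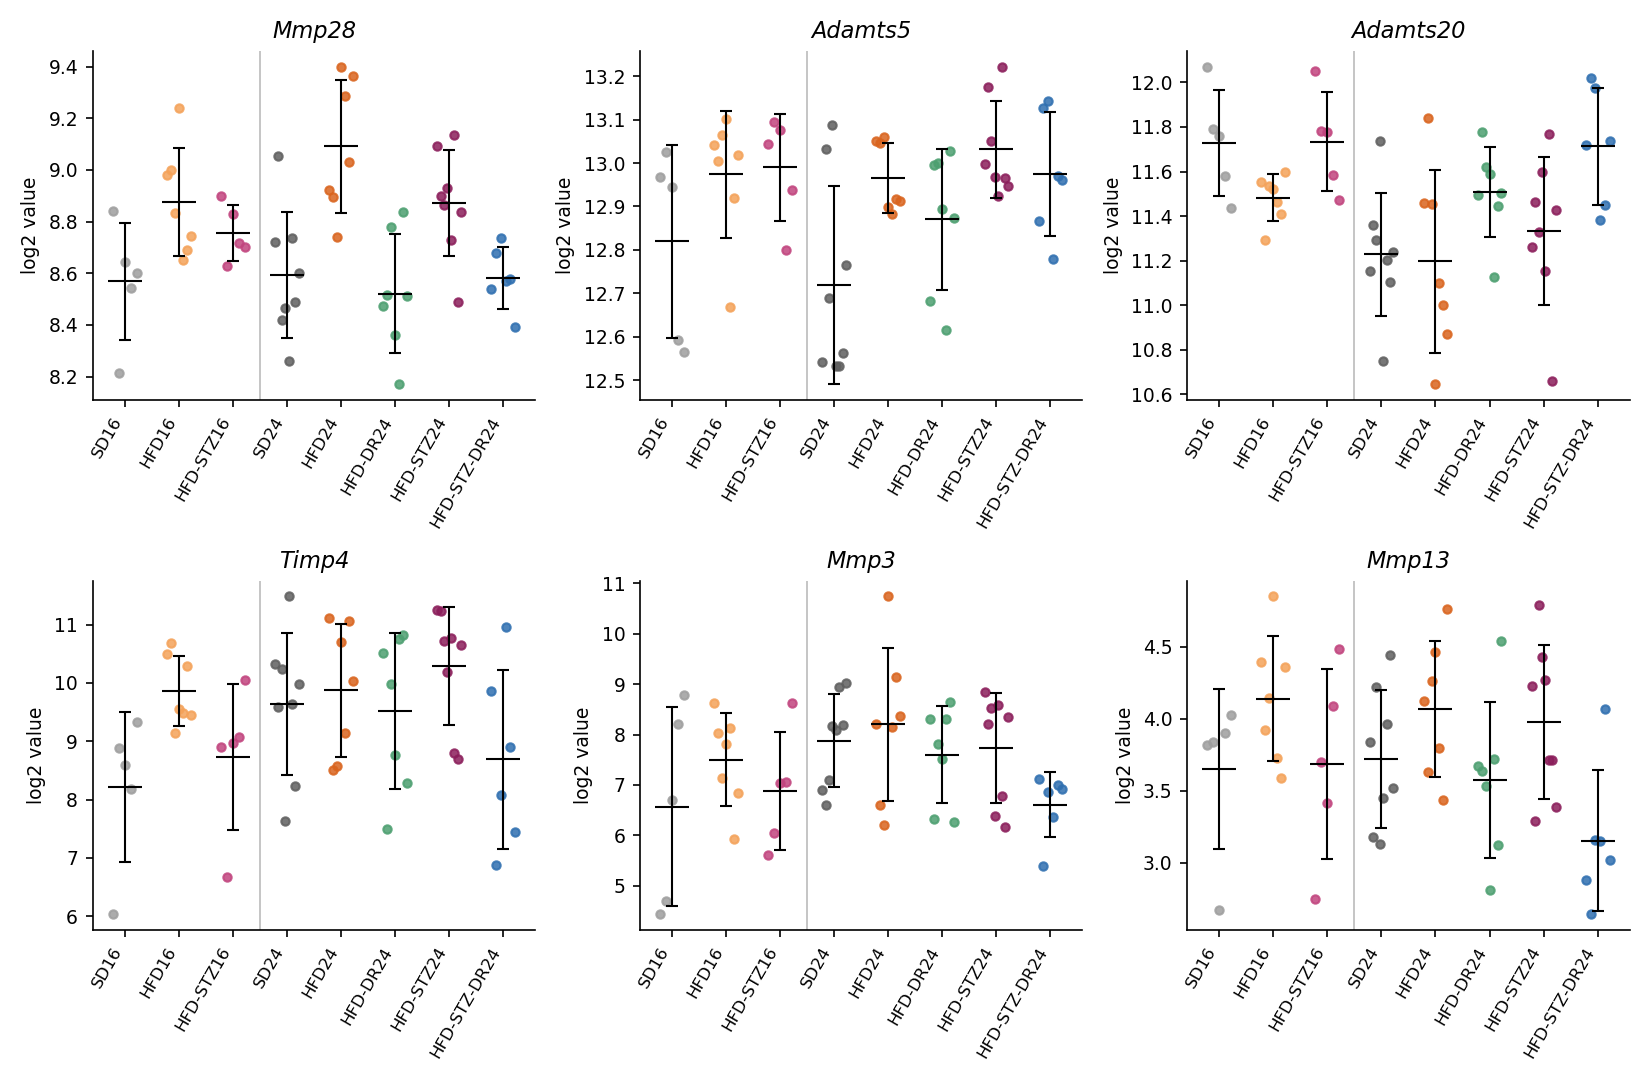
Log2 values of Mmp28, Adamts5, Adamts20, Timp4, Mmp3 and Mmp13 in each of the 53 samples by group (points, samples; bars, mean ± SD; the grey line separates 16 from 24 weeks). Mmp28 is highest in HFD24 and close to the SD24 level in HFD-DR24, while Timp4 and Mmp3 spread widely within every group.

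The gelatinases Mmp2 and Mmp9, which cleave denatured collagen and basement membrane collagen, did not pass in any comparison. Mmp2 was the most abundant protease per kilobase, with group means from 13.33 in HFD-STZ24 to 13.81 in HFD-STZ16. In SD24 it ran from 13.30 to 14.28 (median 13.83), in HFD24 from 13.16 to 14.19 (median 13.83), in HFD-DR24 from 13.14 to 13.95 (median 13.60) and in HFD-STZ-DR24 from 13.00 to 13.97 (median 13.68), so that these ranges covered each other almost wholly. HFD-STZ24 reached lower, from 11.88 to 13.87 (median 13.57), and its lowest value was replicate 7. HFD-STZ24 was 0.44 below SD24 with that library and 0.24 below without it.

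Mmp2 at 16 weeks was 13.25, 13.37, 13.53, 13.94 and 13.99 in SD16, 13.73, 13.53, 13.69, 13.98 and 14.12 in HFD-STZ16, and 13.15 to 13.94 (median 13.53) in HFD16. HFD-STZ16 exceeded HFD16 by 0.31 (SE 0.14, unadjusted p = 0.0412 and adjusted p = 0.987 in limma), with overlapping values. Mmp9 was 7.73, 7.26, 6.98, 8.05 and 9.58 in SD16 and 7.78 to 10.17 (median 9.06) in SD24. The Mmp9 mean was 1.10 higher at 24 weeks (SE 0.48, unadjusted p = 0.0372 and adjusted p = 0.463 in limma, exact permutation p = 0.0606). The medians of Mmp9 in the other 24-week groups were 9.01 in HFD24, 8.77 in HFD-DR24, 9.09 in HFD-STZ24 and 8.38 in HFD-STZ-DR24, with ranges that overlapped in each pair.

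Among the cluster genes on chromosome 9, the collagenase Mmp13 and the stromelysin Mmp3 had lower means after T2D reversal, and Mmp27 had lower means in HFD-STZ24 than in SD24 and in HFD-DR24 than in HFD24, none of them passing the adjusted threshold. Mmp13 ran from 3.29 to 4.79 (median 3.97) in HFD-STZ24 and from 2.65 to 4.07 (median 3.08) in HFD-STZ-DR24, a difference of -0.82 (SE 0.27, unadjusted p = 0.00819 and adjusted p = 0.41 in limma, exact permutation p = 0.0133). The ranges overlapped through 1 high sample of HFD-STZ-DR24 (4.07, the next being 3.16). Both groups lay around the limit of expression. In the prediabetic pair Mmp13 ran from 3.44 to 4.76 (median 4.12) in HFD24 and from 2.81 to 4.54 (median 3.64) in HFD-DR24, and the values in SD24 ran from 3.13 to 4.45 (median 3.68).

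Mmp27 ran from 3.36 to 4.71 (median 3.98) in HFD24, from 2.96 to 4.43 (median 3.85) in SD24, from 2.92 to 3.77 (median 3.46) in HFD-DR24, from 2.43 to 3.90 (median 3.27) in HFD-STZ24 and from 2.62 to 3.98 (median 3.19) in HFD-STZ-DR24. It was 0.56 lower in HFD-STZ24 than in SD24 (SE 0.25, unadjusted p = 0.0371 and adjusted p = 0.817 in limma) and 0.53 lower in HFD-DR24 than in HFD24 (SE 0.24, unadjusted p = 0.0442 and adjusted p = 0.731 in limma). As for Mmp13, these levels straddled the limit of expression. Without HFD-STZ24 replicate 7 the Mmp27 difference between HFD-STZ24 and SD24 was -0.44. Of the 16 fits of that comparison without 1 sample, 7 kept an unadjusted p under 0.05 in limma.

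Mmp3, chosen after its values were seen, was far more variable. It activates other MMPs and degrades many matrix proteins. It ran from 6.17 to 8.84 (median 8.28) in HFD-STZ24 and from 5.39 to 7.11 (median 6.90) in HFD-STZ-DR24, a difference of -1.12 (SE 0.46, unadjusted p = 0.0283 and adjusted p = 0.667 in limma, exact permutation p = 0.0446). With the adipocyte score in the model the difference was 0.29 in the opposite direction. In SD16 the values of Mmp3 were 4.44, 4.70, 6.69, 8.21 and 8.79, and included the lowest of the series.

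The other MMPs by the same rule were Mmp23 and Mmp19. Mmp23 was 9.08 to 9.62 (median 9.29) in HFD-STZ24, 8.71 to 9.41 (median 8.97) in HFD-STZ-DR24 and 8.96, 8.71, 8.86, 8.86 and 9.21 in HFD-STZ16. It was 0.42 higher in HFD-STZ24 than in HFD-STZ16 (SE 0.10, unadjusted p = 0.00131 and adjusted p = 0.279 in limma, exact permutation p = 0.00311) and 0.31 lower in HFD-STZ-DR24 than in HFD-STZ24 (SE 0.11, unadjusted p = 0.0125 and adjusted p = 0.498 in limma). HFD-STZ24 had the higher mean in both, with overlapping ranges, and the 2 comparisons share its samples. Without HFD-STZ-DR24 replicate 4 the second of these Mmp23 differences was -0.25. Mmp19 ran from 8.47 to 9.95 (median 9.30) in HFD24 and from 8.68 to 9.39 (median 8.93) in HFD-DR24, a difference of -0.41 (unadjusted p = 0.0497 and adjusted p = 0.737 in limma), and 28.3% of its exon bases also belong to genes on the other strand.

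The membrane-type MMPs, which work at the cell surface, did not pass in any comparison. Mmp14, the activator of Mmp2, had group means of 11.91 to 12.27, Mmp15 of 13.68 to 14.06 and Mmp16 of 7.23 to 7.73. Mmp16 was 0.47 lower in HFD-STZ24 than in HFD-STZ16 (SE 0.15, unadjusted p = 0.00782 and adjusted p = 0.293 in limma, exact permutation p = 0.0109), between -0.55 and -0.35 without any 1 sample. Mmp15 was 0.31 lower in the same comparison (unadjusted p = 0.0292 and adjusted p = 0.355 in limma). Without HFD-STZ24 replicate 7 the Mmp15 difference was -0.23. Mmp17 was highest in SD16 (11.34, 11.34, 11.13, 11.40 and 11.07) and was 0.43 lower in SD24 (10.43 to 11.21, median 10.82; SE 0.14, unadjusted p = 0.00793 and adjusted p = 0.423 in limma). Mmp14, Mmp15, Mmp16, Mmp17 and Mmp8, like the ADAMTS genes other than Adamts1, Adamts3 and Adamts5, are named for values seen after the fits. Mmp8, the neutrophil collagenase, was 1.27 higher in SD24 than in SD16 (SE 0.55, unadjusted p = 0.0357 and adjusted p = 0.461 in limma, exact permutation p = 0.0637), with ranges of 3.31 to 7.25 and 3.70 to 5.31.

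Of the proteoglycanases, which cleave aggrecan and versican, Adamts5 was the most abundant and among the most even. Its values ran from 12.53 to 13.09 (median 12.63) in SD24, from 12.88 to 13.06 (median 12.92) in HFD24, from 12.92 to 13.22 (median 12.98) in HFD-STZ24, from 12.62 to 13.03 (median 12.89) in HFD-DR24 and from 12.78 to 13.14 (median 12.97) in HFD-STZ-DR24. SD24 thus held the lowest values, though its highest samples reached into the other groups. Adamts5 was 0.25 higher in HFD24 than in SD24 (SE 0.09, 1.19-fold, unadjusted p = 0.013 and adjusted p = 0.402 in limma, exact permutation p = 0.0208) and 0.31 higher in HFD-STZ24 than in SD24 (SE 0.09, 1.24-fold, unadjusted p = 0.00257 and adjusted p = 0.581 in limma, exact permutation p = 0.00513).

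In the fit of all 8 groups with library-number runs, the Adamts5 difference between HFD-STZ24 and SD24 had an adjusted p of 0.0249, where 0.0941% of genes passed. That call held in 44 of 53 fits that each left out 1 sample, and the adjusted p in limma rose to at most 0.104, without SD24 replicate 6. It was lost without any of SD24 replicates 1, 3, 5, 6 and 7 and HFD-STZ24 replicates 2, 3, 5 and 6. These were 9 of the 16 samples compared. Leaving out any 1 sample kept the difference of the pairwise fit between 0.29 and 0.37. At 16 weeks Adamts5 was 12.97, 13.02, 12.95, 12.59 and 12.57 in SD16, 13.04, 13.09, 13.08, 12.80 and 12.94 in HFD-STZ16, and 12.67 to 13.10 (median 13.02) in HFD16, all overlapping.

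Adamts20, a proteoglycanase known from pigment cell migration, had a lower mean at 24 than at 16 weeks on standard diet. SD16 held 12.07, 11.79, 11.76, 11.58 and 11.44, and SD24 ran from 10.75 to 11.74 (median 11.22), a difference of -0.50 (SE 0.14, 0.708-fold, unadjusted p = 0.00298 and adjusted p = 0.35 in limma, exact permutation p = 0.00777). With all 8 groups and library-number runs in 1 fit it was -0.51 with an adjusted p of 0.0473, where 0.675% of genes passed. That call held in 17 of 53 fits that each left out 1 sample, with an adjusted p in limma of up to 0.264, without SD16 replicate 1. With the adipocyte score in the pairwise model it was -0.24 (unadjusted p = 0.0701 in limma). In HFD-STZ-DR24 (11.38 to 12.02, median 11.73) Adamts20 was 0.48 higher than in SD24 and 0.38 higher than in HFD-STZ24 (10.66 to 11.77, median 11.38), with unadjusted p of 0.00282 and 0.0256 and adjusted p of 0.337 and 0.65 in limma. Without HFD-STZ24 replicate 7 the second of these Adamts20 differences was 0.28.

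Adamts1, an inducible proteoglycanase, was 10.06, 10.51, 10.95, 11.46 and 12.03 in SD16, 11.23 to 12.02 (median 11.69) in SD24, 10.58 to 11.96 (median 11.29) in HFD24 and 10.22 to 11.86 (median 11.17) in HFD-STZ24. The SD24 mean (11.65) was the highest of the 8 groups, and the HFD24 mean (11.28) also lay below it. Adamts1 was 0.53 lower in HFD-STZ24 than in SD24 (SE 0.22, unadjusted p = 0.0272 and adjusted p = 0.815 in limma). Without HFD-STZ24 replicate 7 this Adamts1 difference was -0.41. The procollagen N-proteinase Adamts3 ran from 4.51 to 5.65 (median 5.18) in SD24, from 4.39 to 6.28 (median 5.07) in HFD24, from 3.42 to 5.38 (median 4.44) in HFD-STZ24 and from 3.86 to 4.85 (median 4.65) in HFD-STZ-DR24. Values of Adamts3 in both STZ groups at 24 weeks were mostly below those of SD24, by 0.73 in HFD-STZ24 (SE 0.27, unadjusted p = 0.0147 and adjusted p = 0.801 in limma) and by 0.60 in HFD-STZ-DR24 (SE 0.19, unadjusted p = 0.00689 and adjusted p = 0.395 in limma). The 2 comparisons share the SD24 samples.

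Adamts16, at the limit of expression, was 3.64, 3.23, 4.42, 4.39 and 2.81 in SD16, 3.78 to 5.47 (median 4.96) in SD24 and 3.19 to 4.41 (median 3.79) in HFD-STZ-DR24. It was 1.13 higher in SD24 than in SD16 (SE 0.33, unadjusted p = 0.00439 and adjusted p = 0.353 in limma) and 1.03 lower in HFD-STZ-DR24 than in SD24 (SE 0.29, unadjusted p = 0.00264 and adjusted p = 0.335 in limma). Adamts6 in HFD-STZ16 (6.81, 6.77, 7.01, 6.75 and 6.73) and in SD16 (6.68, 5.30, 6.39, 6.46 and 6.32) was the 1 case among all members and comparisons in which the groups did not overlap (against 2.09% of all genes tested in that comparison and 0.00551% to 1.11% in the other 13). The Adamts6 difference was 0.58 (SE 0.23, unadjusted p = 0.0285 and adjusted p = 0.586 in limma, exact permutation p = 0.00794, the smallest this design allows), and 0.35 without SD16 replicate 2.

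The inhibitors Timp2 and Timp3 were both abundant and even. Timp2 ran from 15.77 to 16.68 and Timp3 from 15.66 to 16.48 over all samples, and their group means differed by 0.14 and 0.26 between the highest and the lowest group. The medians of Timp2 were 16.40 in SD24, 16.38 in HFD24, 16.33 in HFD-DR24, 16.19 in HFD-STZ24 and 16.30 in HFD-STZ-DR24, and those of Timp3 were 16.14, 16.07, 16.22, 16.14 and 16.29 in the same order. Of these 2 inhibitors only Timp3 had an unadjusted p under 0.05 in a comparison, 0.23 lower in HFD-STZ24 than in HFD-STZ16 (SE 0.11, unadjusted p = 0.0474 and adjusted p = 0.397 in limma). HFD-STZ16 held 16.40, 16.38, 16.35, 16.24 and 16.24, and HFD-STZ24 ran from 15.66 to 16.31, with its lowest value in replicate 7. Without that library the Timp3 difference was -0.17 (unadjusted p = 0.059 in limma), and 4 of the 13 fits without 1 sample kept an unadjusted p under 0.05. Timp3 lies within Syn3, and 21.3% of its exon bases are shared with that gene on the other strand.

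Timp2 at 16 weeks was 16.20, 16.15, 16.17, 16.45 and 16.48 in SD16, 16.24, 16.29, 16.36, 16.34 and 16.38 in HFD-STZ16, and 16.09 to 16.49 in HFD16. Timp1, the inducible inhibitor, was 7.09, 6.60, 7.004, 7.38 and 7.29 in SD16, 6.24 to 7.32 (median 6.67) in HFD16, 6.69 to 9.13 (median 7.55) in HFD24 and 6.57 to 7.36 (median 7.18) in SD24. The highest HFD24 sample (9.13) exceeded every other sample of the series. Timp1 was 0.77 higher in HFD24 than in HFD16 (SE 0.31, 1.70-fold, unadjusted p = 0.0254 and adjusted p = 0.809 in limma, exact permutation p = 0.0332) and 0.48 higher than in SD24 (unadjusted p = 0.101 in limma). Without that sample, HFD24 replicate 4, the Timp1 differences were 0.50 (unadjusted p = 0.0404 and adjusted p = 1 in limma) and 0.22. Its median was 6.74 in HFD-DR24, 7.19 in HFD-STZ24 and 6.98 in HFD-STZ-DR24.

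Timp4, an inhibitor with a narrow tissue range that is made in fat and heart, had the largest difference of any expressed member over the 14 comparisons. In SD16 the values were 6.04, 8.89, 8.60, 8.18 and 9.34, in HFD16 9.15 to 10.68 (median 9.56) and in HFD-STZ16 8.90, 6.67, 8.97, 9.07 and 10.05. Every HFD16 sample lay above 4 of the 5 SD16 samples, and HFD-STZ16 overlapped with both. Timp4 was 1.66 higher in HFD16 than in SD16 (SE 0.47, 3.16-fold, unadjusted p = 0.00371 and adjusted p = 0.43 in limma, exact permutation p = 0.00505). The study lists Timp4 among genes it selected on these libraries, so its direction is not independent evidence.

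At 24 weeks Timp4 ran from 7.63 to 11.48 (median 9.81) in SD24, from 8.50 to 11.11 (median 10.03) in HFD24, from 7.50 to 10.83 (median 9.99) in HFD-DR24, from 8.70 to 11.25 (median 10.69) in HFD-STZ24 and from 6.89 to 10.95 (median 8.49) in HFD-STZ-DR24. HFD24 and SD24 covered each other. HFD-STZ-DR24 was 1.60 lower than HFD-STZ24 (SE 0.61, 0.330-fold, unadjusted p = 0.0192 and adjusted p = 0.593 in limma, exact permutation p = 0.0413). The difference was -2.05 without HFD-STZ-DR24 replicate 4 and -1.24 without HFD-STZ-DR24 replicate 2 (unadjusted p = 0.0559 in limma for the latter). Timp4 was 1.43 higher in SD24 than in SD16 and 1.56 higher in HFD-STZ24 than in HFD-STZ16, with unadjusted p of 0.0381 and 0.0148 and adjusted p of 0.464 and 0.311 in limma. Without SD16 replicate 1 the first of these Timp4 differences was 0.89. Without HFD-STZ16 replicate 2 the second was 1.04 (unadjusted p = 0.0514 in limma).

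Adipocyte markers moved with Timp4 in the HFD comparison at 16 weeks and in the T2D reversal. The mean of 6 markers (Adipoq, Plin1, Cidec, Fabp4, Retn and Cfd), none of which was near 0 in any group, ran from 8.51 to 12.91 over SD16 samples and from 11.79 to 13.80 over HFD16, and from 11.33 to 13.90 over HFD-STZ24 and from 9.07 to 12.07 over HFD-STZ-DR24. The group means were 10.89 and 12.71 (exact permutation p = 0.048) and 12.99 and 11.10 (exact permutation p = 0.00999). In the age comparisons the score was 1.71 higher in SD24 than in SD16 (exact permutation p = 0.0606) and 1.32 higher in HFD-STZ24 than in HFD-STZ16 (exact permutation p = 0.0901). With that score in the model the Timp4 difference was 0.78 between HFD16 and SD16 (unadjusted p = 0.102 in limma) and 0.31 in the opposite direction between HFD-STZ-DR24 and HFD-STZ24.

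Within groups, the values of many members went with marker scores of other cell types. For each of the 37 expressed members, values were centred on their group means and related to 5 marker scores over the 53 samples, 185 relations in all, with 100000 permutations within groups and adjustment over the 185. An adjusted p under 0.05 was reached by 24 members with the adipocyte score (17 positive), 24 with the macrophage score (18 positive), 21 with the fibroblast score (18 positive), 5 with the muscle score (1 positive) and 4 with the neutrophil score (1 positive). The scores share libraries and normalization with the members, and members can follow several of them. The share of all expressed genes that follow these scores was not computed, so the counts have no background beside them.

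Mmp2 followed the fibroblast score (Pdgfra, Col1a1, Col3a1, Dcn, Lum and Dpt) with Pearson's r = 0.93 and Spearman's rho = 0.91 (permutation p = 1e-05 for each, the smallest these permutations can give, adjusted p = 7.71e-05). Without the 2 samples farthest from the median of the score r was 0.91. Within the 6 runs of 7 or 8 libraries with neighbouring numbers it was 0.50 to 0.97. Values within runs were not centred on group means, here or below, so these r include differences between groups. Adamts2 (r = 0.94) and Mmp14 (r = 0.89) followed the fibroblast score alike. Of the 6 markers Dpt went with the adipocyte markers between groups, with means of 8.61 in SD16, 10.64 in HFD16, 10.65 in HFD-STZ24 and 8.73 in HFD-STZ-DR24, where Col1a1 was 16.13, 15.91, 15.55 and 15.73. With Dpt left out of the score, r was 0.97 for Mmp2, 0.93 for Adamts2, 0.89 for Mmp14 and 0.67 for Mmp3. The macrophage score was followed as well, with r = 0.82 for Mmp2, 0.84 for Adamts2 and 0.84 for Mmp14. Timp4 followed the adipocyte score with r = 0.83 and rho = 0.80 (permutation p = 1e-05 for each, adjusted p = 7.71e-05), with r = 0.79 without the 2 farthest samples and 0.32 to 0.99 within runs.

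Mmp3 followed the macrophage score with r = 0.85 and rho = 0.84 (permutation p = 1e-05 for each, adjusted p = 7.71e-05), r = 0.82 without the 2 farthest samples and 0.47 to 0.96 within runs, and the fibroblast score with r = 0.82 and rho = 0.84 (permutation p = 1e-05 for each, adjusted p = 7.71e-05), r = 0.82 without the 2 farthest samples and 0.38 to 0.87 within runs. It followed the adipocyte score as well, with r = 0.83 and rho = 0.83 (permutation p = 1e-05 for each, adjusted p = 7.71e-05) and r = 0.82 without the 2 farthest samples. Its r within runs, on values not centred, was -0.16 to 0.98, so it was not positive in every run. Mmp8 followed the neutrophil score (S100a8, S100a9, Ly6g, Camp, Ngp and Ltf) with r = 0.88 and rho = 0.81 (permutation p = 1e-05 for each, adjusted p = 7.71e-05), r = 0.83 without the 2 farthest samples and 0.50 to 0.95 within runs. Adamts20 was negatively related to the adipocyte score (r = -0.48, rho = -0.52, permutation p = 0.00065 and 0.00033, adjusted p = 0.00277 and 0.00157, r = -0.47 without the 2 farthest samples, -0.92 to -0.25 within runs). For Mmp28 only the muscle score gave an adjusted p under 0.05 (r = -0.36, rho = -0.36, permutation p = 0.0181 and 0.014, adjusted p = 0.0434 and 0.0323, r = -0.32 without the 2 farthest samples), with -0.92 to 0.40 within runs.

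**Figure D4:**
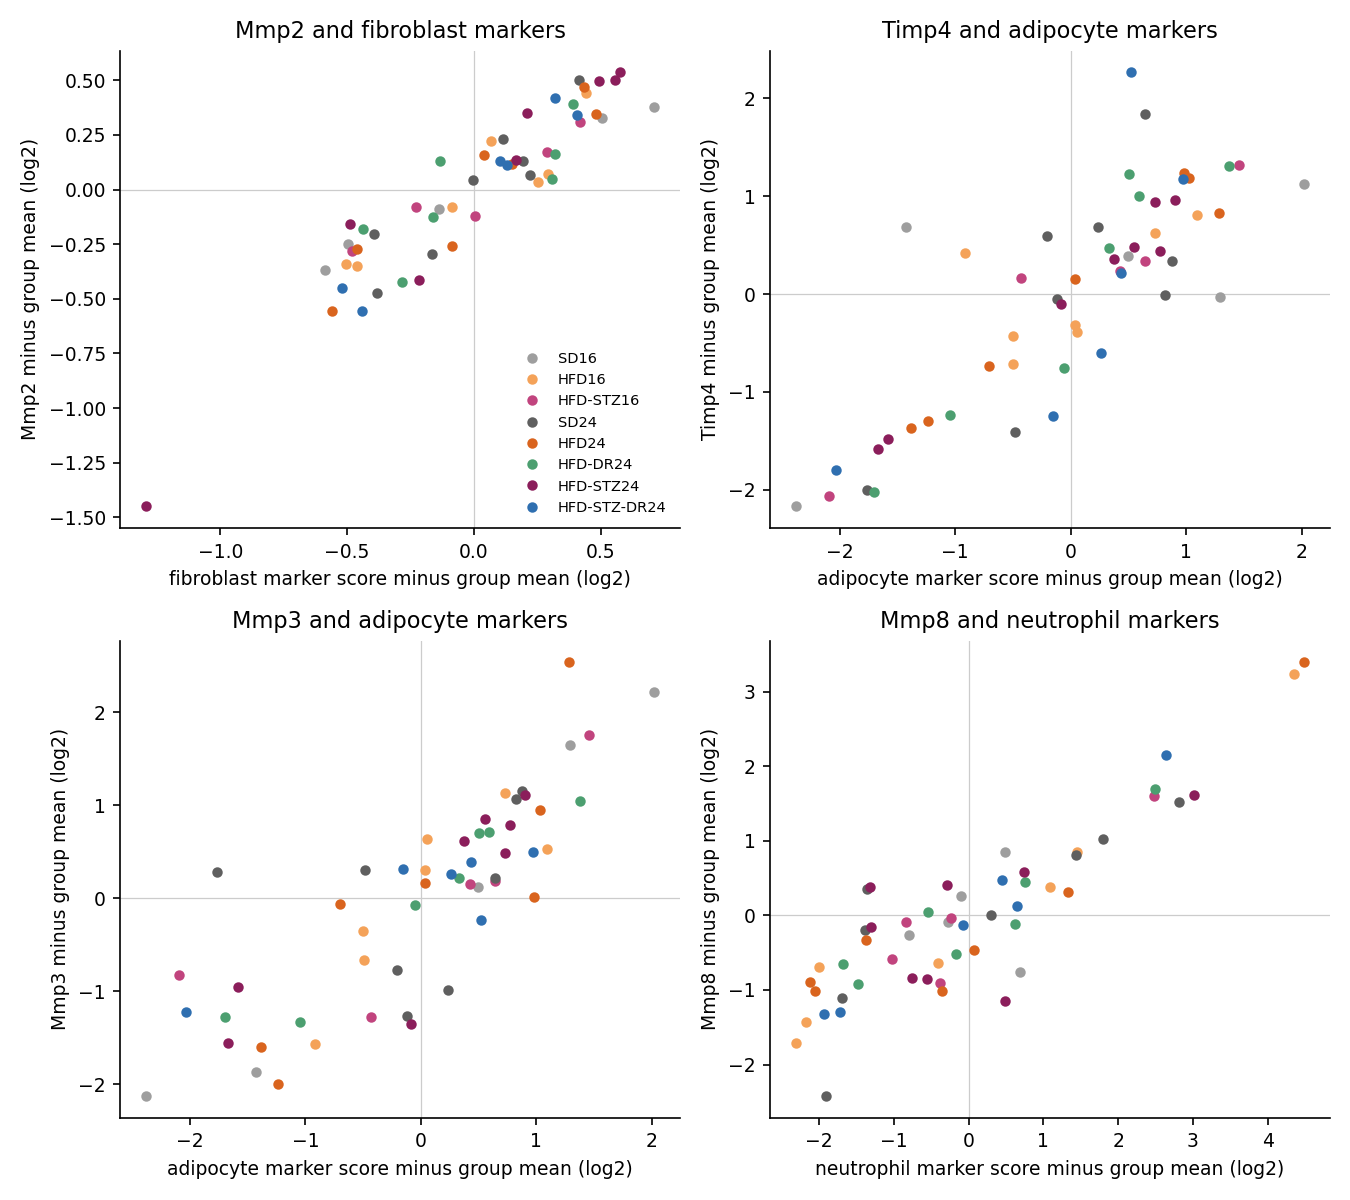
Mmp2 against the fibroblast score, Timp4 and Mmp3 against the adipocyte score and Mmp8 against the neutrophil score in 53 samples (points; all values are log2 differences from the mean of the sample's own group). Each panel shows a positive relation, with Pearson's r of 0.93, 0.83, 0.83 and 0.88.

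Muscle and macrophage markers had different means in HFD24 and HFD-DR24, but the ranges overlapped and neither score passed the test. The mean of 6 skeletal muscle markers was 9.56 in HFD24 (6.92 to 15.01 over samples) and 12.32 in HFD-DR24 (9.04 to 15.72; exact permutation p = 0.0746), and that of 6 macrophage markers was 11.50 and 10.97 (10.63 to 12.49 and 10.67 to 11.30; exact permutation p = 0.067). No marker of either list was near 0. The part of the macrophage score in the differences of the members was not tested.

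Other genes of matrix proteolysis were read beside the members: 48 were listed (ADAM sheddases, plasminogen activators and their inhibitors, cathepsins, ADAMTS-like proteins and proteoglycan substrates among them), 47 were in the files and 43 were tested. None passed an adjusted p of 0.05 in any of the 14 comparisons. Unadjusted p under 0.05 in limma was reached by 4 of 43 genes in HFD24 against SD24, all higher (9.06% of all genes), and by 5 in HFD-STZ24 against SD24, 4 of them higher (5.99%). It was reached by 8 in HFD-DR24 against HFD24, all lower (6.72%), and by 7 in HFD-STZ-DR24 against HFD-STZ24, all lower (6.48%). The leading genes were Adam8, a sheddase of myeloid cells, and Ncan, the proteoglycan neurocan. The study lists both, as it does Timp4, among genes chosen on these libraries, so their direction is not independent evidence.

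Adam8 was 6.38 ± 0.80 (SD, n = 8) in SD24, 8.54 ± 1.04 (n = 7) in HFD24 and 6.44 ± 0.41 (n = 7) in HFD-DR24, a difference of 2.16 with HFD (adjusted p = 0.0623 in limma) and of -2.09 with reversal (adjusted p = 0.102 in limma). In the T2D model Adam8 was 7.74 ± 1.12 (n = 8) and 6.18 ± 0.45 (n = 6) before and after reversal. Ncan was 1.70 higher in HFD24 than in SD24 and 1.68 lower in HFD-STZ-DR24 than in HFD-STZ24 (adjusted p = 0.125 and 0.182 in limma). The sheddase Adam12 was 1.03 higher in HFD24 than in SD24 and 1.01 lower in HFD-DR24 than in HFD24 (adjusted p = 0.253 and 0.475 in limma). The directions of these 3 genes were those of Mmp28 in the prediabetic comparisons, which share samples.

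Whether an effect differed between ages or models was tested directly with interaction terms. For the HFD effect, 0 of 37 members had an unadjusted p under 0.05 in limma for a change between 16 and 24 weeks, against 1.67% of genes (adjusted, 0%). For the HFD-STZ effect 3 of 37 had one, against 4.68% (adjusted, 0%): Adamts3 (difference of differences -1.17, unadjusted p = 0.0125), Adamts16 (-1.28, unadjusted p = 0.0359) and Mmp23 (0.39, unadjusted p = 0.0252). For reversal in the T2D against the prediabetic model 1 of 38 had one, against 1.71% (adjusted, 0%), Adamts17 (0.71, unadjusted p = 0.0251). No member passed after adjustment, the smallest adjusted p being 0.757 in limma, so that no effect on a member was shown to differ between ages or models.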

How the data were processed

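Transcriptomes of 53 sciatic nerve samples in 8 groups were analysed, with groups taken from the labels. The labels name Trizol extraction and a TruSeq mRNA kit, while the study's methods name RNeasy columns and a non-stranded SMART-Seq v4 kit, so the library preparation is uncertain. Reads were aligned by the authors with HISAT2 to mm10 and counted with featureCounts, with DESeq2 used by the authors for their own tests. Versions were not given in the sources used here. The authors deposited log2 values per gene, normalized between samples by a method not named in those sources, with 49568 genes each. Depth is therefore unknown, and the number of samples limits the precision.

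The 45 members, the gene lists and the tests were chosen with earlier results of these data known. Each of 14 pairs of groups was fitted with limma 3.58.1 (R 4.3.3; lmFit and eBayes with trend, 2-sided) on the samples of both groups, without covariates. Genes with a mean log2 value under a linear value of 10 over the compared samples, and 25 genes with any value above 22, were left out. Benjamini-Hochberg adjustment covered all genes tested, and an adjusted p under 0.05 was the threshold. Standard errors are those of limma. Single differences were also tested with an exact 2-sided permutation of samples. Scores are means of the log2 values of 6 markers per cell type. Python 3.11.15, numpy 2.4.6, pandas 2.3.3, scipy 1.17.1 and matplotlib 3.10.9 were used, and the fits were tested on simulated data. Exon lengths and overlaps come from the GRCm38 annotation, and promoters from RefSeq.

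Values by sample are given for the TIMPs, Mmp2, Mmp9, members with an adjusted p under 0.05 in the pairwise or the 8-group fit, and the 3 expressed members with the smallest p in each of 4 comparisons (HFD24 and HFD-STZ24 against SD24, and both reversals). Of the other proteolysis genes, the 2 with the smallest p in each of these were named. Alternatives were no filter, a filter on every sample, 1 fit of all 8 groups with and without runs of library numbers, robust and trend-free variance priors, the 25 genes kept, median centring, adipocyte or muscle scores as covariates, and leaving out 1 sample at a time. Library numbers in the labels form 8 runs of consecutive or nearly consecutive numbers. Deviations of samples of different groups from their group means had a median correlation of 0.0516 in the same run (159 pairs) and of -0.0104 in different runs (1065 pairs).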

Additional observations from a re-analysis of the deposited data

Results flagged for a closer look

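In 7 of 112 groups of samples looked at, 14 members in 8 groups each, 1 sample lay far from the others by its gap over the range of its group, where chance gives about 1 in 20. Adamts5 was 12.67 in HFD16 replicate 5, with 12.92 as the next value, and Mmp23 was 9.50 in the same sample, with 9.05 as the next. Mmp13 was 4.07 in HFD-STZ-DR24 replicate 5 (next 3.16) and 2.67 in SD16 replicate 3 (next 3.82). Mmp27 was 2.51 in SD16 replicate 2 (next 3.55). Timp2 was 15.91 in HFD-DR24 replicate 1 (next 16.24), and Timp3 was 15.80 in HFD-STZ-DR24 replicate 4 (next 16.24), a library with a low correlation with the others.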

How the results depend on the processing

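The count of 0 members passing an adjusted p of 0.05 in limma became 1 in few settings. In 1 fit of all 8 groups 1 member (Mmp28) passed in HFD24 against SD24 and 1 (Mmp28) in HFD-DR24 against HFD24. With the runs of library numbers as a replicate block in that fit, 1 member passed in each of HFD24 against SD24 (Mmp28), HFD-DR24 against HFD24 (Mmp28), HFD-STZ24 against SD24 (Adamts5) and SD24 against SD16 (Adamts20), with differences of 0.51, -0.57, 0.31 and -0.51, and the block changed no other call. All pairwise fits that left out 1 sample gave a count of 0. With the adipocyte score as covariate the difference between HFD-STZ-DR24 and HFD-STZ24 turned from -1.12 to 0.29 for Mmp3 and from -1.60 to 0.31 for Timp4.

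Of the 68 member differences with an unadjusted p under 0.05, 66 kept their direction with the adipocyte score, and 26 still had such a p. In the settings other than that one, every one with a value kept its direction, and between 51 and 68 of them, depending on the setting, kept an unadjusted p under 0.05. In the settings without a covariate, runs or median centring, the difference of group means is the same, so its direction could not change. Over the 14 comparisons the p stayed under 0.05 in 700 of 916 values from fits without 1 sample, and all 916 kept the direction. The differences had been chosen for a small p, so a kept direction without 1 sample says little. Leaving out samples was added after seeing the data in 5 comparisons (HFD-STZ24 and HFD16 against HFD24, HFD-DR24 against SD24, and HFD-STZ-DR24 against SD24 and HFD-DR24), as were the score without Dpt and the 8-group fits without 1 sample, in which 3 of the 4 calls with runs were lost in 1 (Mmp28, HFD-DR24 against HFD24), 9 (Adamts5) and 36 (Adamts20) of 53. The losses of the Mmp28 and Adamts5 calls all came from samples of the groups compared. Depth is unknown, so no limit of detection can be given.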
